A study of Mus musculus with 12 samples.

Results

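The genes of the translation initiation factors were followed in neural stem/progenitor cells (NSPCs) with and without the m6A reader *Ythdf2*. Members were the rows of each gene count table whose mouse symbol begins with Eif and a digit, apart from *Eif2s3x* and *Eif2s3y*, which lie on the sex chromosomes and were left out. This gave 53 of the 24525 genes in each table, of which 13 belong to eIF2, its exchange factor, its kinases and the initiator tRNA factors *Eif2a* and *Eif2d*, 14 to eIF3, 16 to eIF4, 5 to eIF1 and eIF1A, and 5 to eIF5, eIF5B, eIF5A and eIF6. The cells came from E14.5 embryo brains of C57BL/6 mice and were taken at passage P1 from culture with EGF and bFGF, with no further treatment. Wild-type cells were compared with *Ythdf2*-/- cells, 3 libraries of each genotype, made from mRNA fragments set aside as input before an m6A antibody step. The other 6 of the 12 samples are the matching m6A-IP libraries and were not analysed here. The null allele goes back to LoxP sites around the 5′ UTR and exon 1 of *Ythdf2*, deleted by a Cre that is expressed in all tissues, and the null embryos came from matings between heterozygotes, so the gene was missing from every cell of the embryo and not only from neural cells. The study describes the libraries of a genotype as biological replicates, and the labels do not say which embryos or cultures they came from.

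Initiation joins a ribosome to the start codon of an mRNA. The eIF4 proteins recognise the 5′ cap and unwind the leader, eIF3 holds the small ribosomal subunit and links it to eIF4, and eIF2 brings the initiator tRNA in its GTP-bound form, while eIF1, eIF1A, eIF5 and eIF5B act in start codon selection and in the joining of the large subunit. Most control falls on a pair of steps: kinases that phosphorylate the alpha subunit of eIF2 block its recycling by eIF2B, and unphosphorylated eIF4E-binding proteins keep eIF4E away from eIF4G. *Ythdf2* binds mRNAs that carry m6A and promotes their decay, and growing cells spend much of their energy on protein synthesis, so the question put to these tables is whether initiation factor mRNAs stood at other levels in the cells without the reader.

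The scaffolds and the binding proteins compete for eIF4E through a shared short motif, a tyrosine followed at the sixth position by a leucine. The search took a tyrosine, then aspartate, threonine or serine, then arginine or lysine, then glutamate or lysine, then glutamate or phenylalanine, then leucine, and then leucine or methionine. The 21 bases that encode it were read from the RefSeq coding sequences of GRCm38.p6, and capitals mark the codons of the tyrosine and of the leucine. They are shown because these genes are the rival partners of one protein and are compared with each other below.
Eif4g1: TATgacagagaattcCTGctg
Eif4g3: TATgaccgggagttcCTActg
Eif4ebp1: TATgaccggaaatttCTGatg
Eif4ebp2: TATgaccgaaagtttCTGttg
Eif4enif1: TATacgaaagaggagCTCttg
These lie in coding exons at chr16:20681221-20681241 on the plus strand for *Eif4g1*, chr4:138156650-138156670 on the plus strand for *Eif4g3*, chr8:27273337-27273357 on the plus strand for *Eif4ebp1* and chr10:61435069-61435089 on the minus strand for *Eif4ebp2*. The *Eif4enif1* stretch is split by an intron, its outer bases being chr11:3203742-3213271 on the plus strand. No match to that pattern was found in the coding sequence of *Eif4g2*, the scaffold known to lack eIF4E binding. The coding sequence of *Eif4ebp3* held 1 match, whose bases are not shown. The tyrosine codon is TAT in the 5 genes shown, and the leucine codon is CTG in *Eif4g1*, *Eif4ebp1* and *Eif4ebp2*, CTA in *Eif4g3* and CTC in *Eif4enif1*.

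The libraries held 11029827 to 13185778 counted reads. The targeted gene was at 71.9, 73.3 and 91.4 CPM (counts scaled to the size of the library) in wild-type replicates 1, 2 and 3 and at 11.7, 14.7 and 11.1 CPM in *Ythdf2*-/- replicates 1, 2 and 3, with a log2 fold change of -2.66 (SE 0.18). Its unadjusted p was 4.17e-06, but its adjusted p of 0.0547 in edgeR missed the threshold of 0.05 with all 6 libraries. It passed in edgeR without wild-type replicate 3, with an adjusted p of 0.0203, and with all libraries in DESeq2. Wild-type replicate 3 stood apart: its mean Spearman correlation with the other libraries was 0.900, against 0.962 to 0.970, and it lay at 91.0 on a first principal component that held 74.2% of the variance, with the others at -30.6 to -6.04. Its summed level of 8 neural progenitor markers was 3262 CPM, against 4844 to 6549 in the other 5 libraries, while 5 neuronal markers were at 1845 against 1052 to 1281, 5 astroglial markers at 6456 against 2157 to 4168, 6 oligodendrocyte lineage markers at 3212 against 1436 to 1783 and 4 mesenchymal markers at 31.9 against 0.889 to 4.26. Microglia and macrophage markers summed to at most 1.54 CPM and endothelial markers to at most 1.62 CPM. Of these lists *Aif1*, *Csf1r*, *Tyrobp*, *Cdh5* and *Cldn5* were at 3 reads or fewer in every library. So were *Col1a2* and *Col3a1* of the mesenchymal list, whose sum thus rested almost wholly on *Col1a1* and *Pdgfrb*. More than 3 reads on 4 Y-linked genes were present in wild-type replicates 1 and 2 and *Ythdf2*-/- replicate 3. In bulk samples such as these, fewer cells of a type and less RNA per cell cannot be told apart. Where the log2 fold change printed for a single member moved by more than 0.1 or changed sign without wild-type replicate 3, both values are given.

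No initiation factor gene was called between genotypes with all 6 libraries, in a test that did not call the deleted gene either. Of the 53 members, 50 passed the filter on low counts (edgeR's filterByExpr), and the 3 others were *Eif3j1* and *Eif3j2*, with 0 reads in all 6 libraries, and *Eif4e1b*, a germline relative of the cap-binding protein, with 1 read in wild-type replicate 2, although the deposited expected counts of *Eif4e1b* were 8.78 to 21.01 per library. Of the 50, 0 passed an adjusted p of 0.05 by the quasi-likelihood test of edgeR, and the smallest adjusted p was 0.999. The same was true of 0% of all 13112 genes tested in either direction. DESeq2 also called 0 members, with 0.0458% of all genes called higher and 0.191% lower, and limma-voom called 0 members and 0 genes. At an unadjusted p under 0.05, 0 members were higher in *Ythdf2*-/- (1.81% of all genes) and 1 was lower (1.82%), which was *Eif1a*. The same counts of 0 and 1 came from DESeq2 (1.91% and 2.36% of all genes) and limma-voom (1.86% and 1.61%). With a term for the presence of Y-linked reads, 1 member was higher, *Eif2ak2*, and 2 were lower, *Eif4a2* and *Eif4e3* (5.23% and 5.72%), and *Eif1a*, at an unadjusted p of 0.0791 in edgeR, was not among them. The 3 libraries of each genotype did not overlap for 2 members that were higher in *Ythdf2*-/- (5.24% of all genes), *Eif2ak1* and *Eif5*, and for 4 that were lower (4.92%), *Eif1a*, *Eif4e3*, *Eif4enif1* and *Eif4g2*. The members' shares were thus 4% and 8%, and 3 libraries against 3 allow no exact permutation p below 0.1 for a single gene.

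The size of the differences can be bounded. The log2 fold change, *Ythdf2*-/- relative to wild type, lay within 0.5 of 0 for 49 of the 50 members (98% against 87.4% of all genes) and within 0.25 for 41, and it was smaller than its own standard error for 35. The 95% intervals of 46 members lay within 1 log2 unit of 0, and the exceptions were *Eif2s1*, *Eif4e3*, *Eif4ebp1* and *Eif5a*. Standard errors ran from 0.11 to 0.54 with a median of 0.17, against 0.25 over all genes. The median log2 fold change was -0.07 for members and -0.01 for all genes, and 38 of 50 members (76%) had a negative value against 51.9% of all genes.

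**Figure D1:**
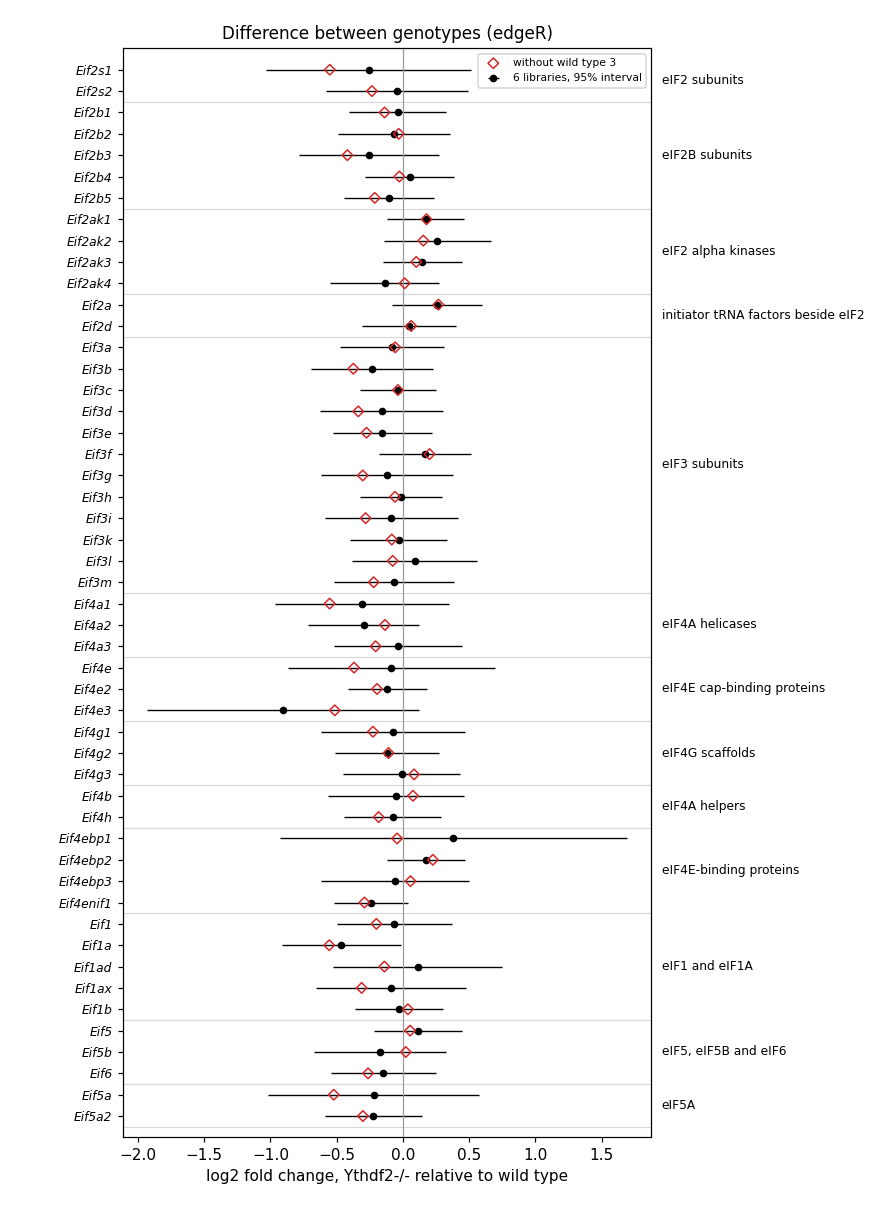
Log2 fold change of the 50 tested initiation factor genes (x axis, *Ythdf2*-/- relative to wild type), grouped by factor, with black points and bars for the edgeR estimate and 95% interval from 6 libraries and open red diamonds for the estimate without wild-type replicate 3. The interval of 1 gene, *Eif1a*, lies wholly below 0, the intervals of the other 49 cross it, and without wild-type replicate 3 the estimate is lower for 34 of the 50 genes.

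These counts depended on wild-type replicate 3. Without it, the median log2 fold change was -0.14 for members and 0.01 for all genes, 36 of 50 members were negative, and 12 had an unadjusted p under 0.05 in the lower direction (8.58% of all genes in that fit) while 0 had one in the higher direction (8.03%). The 12 were *Eif1a*, *Eif1ax*, *Eif2b3*, *Eif2s1*, *Eif3b*, *Eif3d*, *Eif3e*, *Eif3g*, *Eif3i*, *Eif4a1*, *Eif4enif1* and *Eif5a*. None passed the adjusted threshold, the smallest adjusted p of a member in edgeR being 0.171, and 2 of all genes (0.0151%) were called lower. The number of members lower without overlap went from 4 to 24 (20% of all genes), and the number higher from 2 to 3 (18.9%). A limma-voom fit that weighted each library by its own quality, and gave wild-type replicate 3 a weight of 0.0901, called 2 members lower and 0 higher at an adjusted p under 0.05 (2.28% and 2.54% of all genes). They were *Eif4a1*, with a log2 fold change of -0.52 and an adjusted p of 0.0417, and *Eif5a*, with -0.51 and 0.0493. In edgeR with all 6 libraries neither gene was called, at an unadjusted p of 0.293 for *Eif4a1* and 0.524 for *Eif5a*. With the Y-linked term in edgeR their log2 fold changes were -0.10 (unadjusted p 0.701) and 0.09 (unadjusted p 0.757), a turn of sign for *Eif5a*. Neither edgeR fit gave wild-type replicate 3 a low weight, so they are no test of the quality-weighted calls. At an unadjusted p under 0.05 the quality-weighted limma-voom fit had 2 members higher and 17 lower (15.5% and 14.4% of all genes). With wild-type replicate 3 left out in edgeR, 5 members (10% against 15.7% of all genes) lay 0.5 or more from 0: *Eif1a*, *Eif2s1*, *Eif4a1*, *Eif4e3* and *Eif5a*. The unadjusted call on *Eif1a* was lost on leaving out wild-type replicate 1 or 2 or *Ythdf2*-/- replicate 2 or 3 and, at an edgeR p of 0.0512, with no filter on low counts. The number of members higher without overlap went from 2 to 4 without *Ythdf2*-/- replicate 1 (7.66% of all genes) and to 5 without *Ythdf2*-/- replicate 3 (8.42%).

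**Figure D2:**
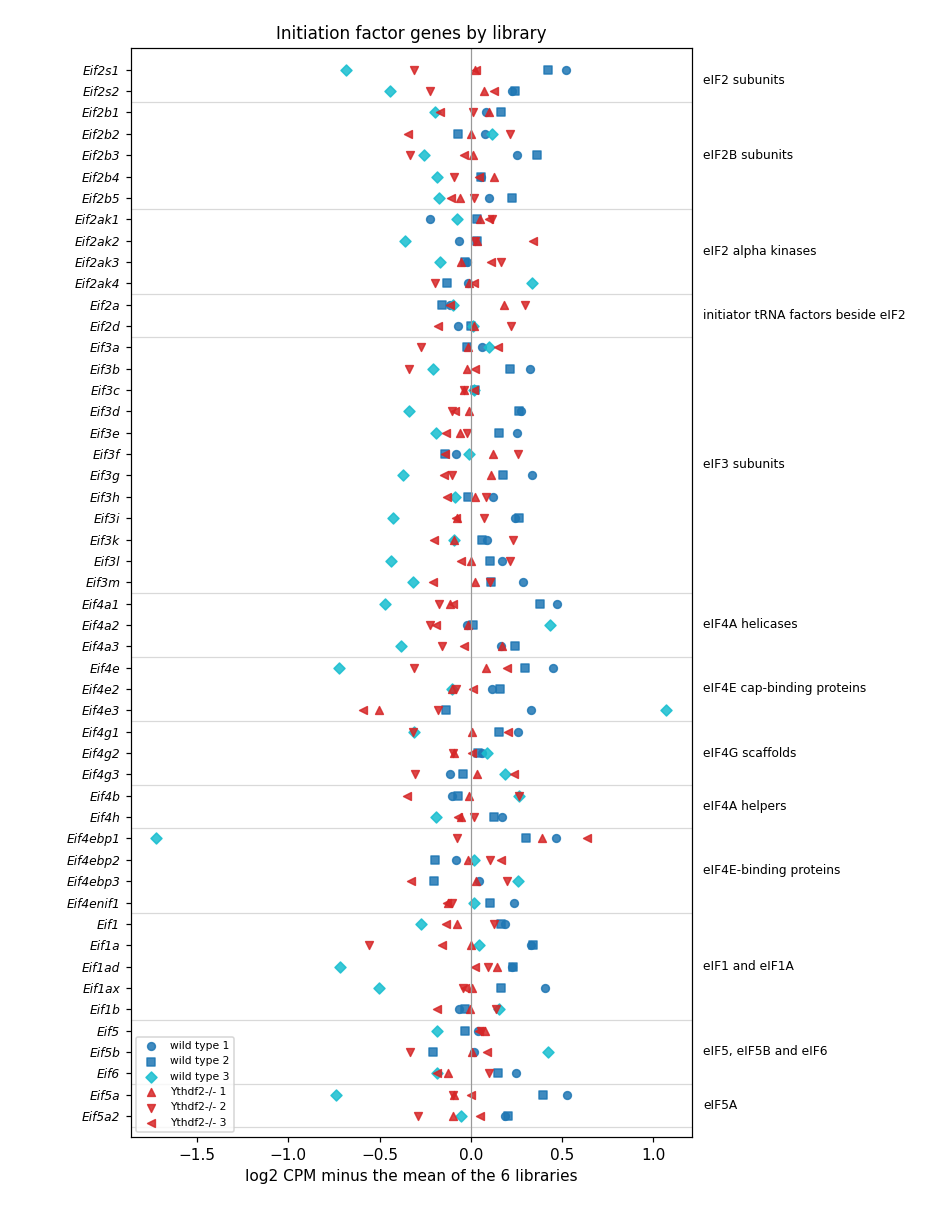
Level of each tested initiation factor gene in each library, as log2 CPM minus the mean of that gene over the 6 libraries (x axis), with blue circles, squares and cyan diamonds for wild-type replicates 1, 2 and 3 and red triangles for the *Ythdf2*-/- libraries. Wild-type replicate 3 is the lowest library for 23 of the 50 genes, among them *Eif4ebp1*, *Eif5a*, *Eif4e* and *Eif2s1*, and the highest for 8, among them *Eif4e3* and *Eif5b*.

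The summed level by factor showed the same split. In what follows, CPM values are listed in the order of wild-type replicates 1, 2 and 3 and then *Ythdf2*-/- replicates 1, 2 and 3. All 53 members together were at 11925, 11499 and 9714 CPM and at 10392, 10115 and 10428 CPM, a log2 ratio of -0.10 with all libraries and -0.18 without wild-type replicate 3. The 3 *Ythdf2*-/- libraries thus sat between the first pair of wild-type libraries and the third. eIF2 genes summed to 968, 977 and 749.7 CPM in wild type and 915, 872 and 893 CPM in *Ythdf2*-/-, with a log2 ratio of -0.01 (-0.12 without wild-type replicate 3). eIF3 genes summed to 2853, 2720.4 and 2344 CPM in wild type and 2552, 2513 and 2503 CPM in *Ythdf2*-/-, with a log2 ratio of -0.07 (-0.14). eIF4 genes, at 50.3% of all initiation factor reads, summed to 5972, 5792 and 5136 CPM in wild type and 5147, 4943 and 5260.4 CPM in *Ythdf2*-/-, with a log2 ratio of -0.14 (-0.20). For these 3 factors the ranges of the genotypes overlapped with all libraries, but without wild-type replicate 3 every *Ythdf2*-/- library was below both wild-type ones. Of all single genes, 20% were lower in this way. With all libraries the SD in wild type (129, 264 and 440 CPM) exceeded that in *Ythdf2*-/- (21.7, 25.6 and 161 CPM).

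**Figure D3:**
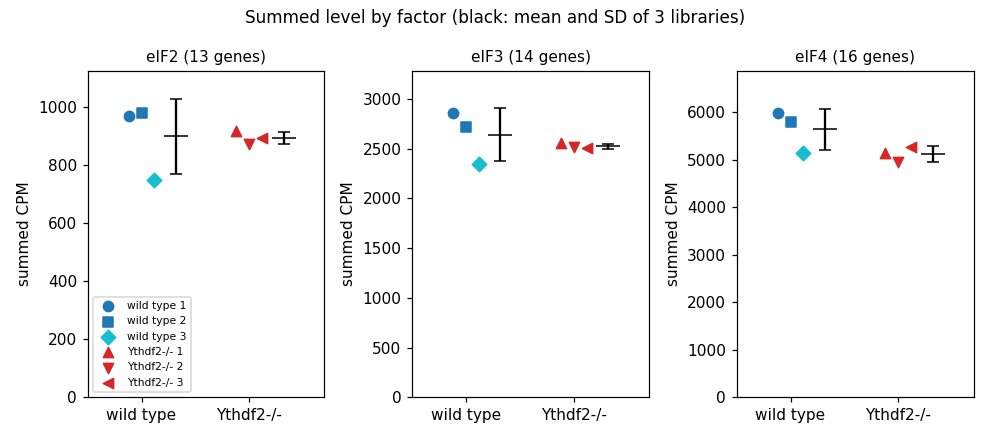
Summed CPM of the genes of eIF2, eIF3 and eIF4 (y axes, from 0) in each library, with the mean and SD of 3 libraries per genotype in black. The *Ythdf2*-/- libraries lie close together and inside the wild-type range, except for *Ythdf2*-/- replicate 2 in eIF4 (4943), which is below the lowest wild-type library (5136), and wild-type replicate 3 is the lowest of its group in all 3 panels.

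The mRNAs of the eIF2 subunits differed more among wild-type libraries than between genotypes. *Eif2s1* encodes the alpha subunit, whose phosphorylation shuts down initiation, and lies on chromosome 12 at 78862072 to 78887010 on the plus strand in GRCm38. It was at 175, 164 and 76.1 CPM in wild type and 124, 98.3 and 125 CPM in *Ythdf2*-/-, with a log2 fold change of -0.26 (SE 0.32) and -0.55 without wild-type replicate 3. Wild-type replicates 1 and 2 were above all *Ythdf2*-/- libraries and replicate 3 was below them. *Eif2s2*, the beta subunit, stood at 235, 238 and 148 CPM in wild type and 211, 172 and 219 CPM in *Ythdf2*-/-, in the same order, with a log2 fold change of -0.04 (SE 0.22), or -0.23 without that replicate. The 5 subunits of eIF2B, which recharges eIF2 with GTP, had log2 fold changes from -0.25 (*Eif2b3*) to 0.05 (*Eif2b4*), and 4 of the 5 were smaller than their standard error. They ran from -0.42 (*Eif2b3*) to -0.03 (*Eif2b4*) without wild-type replicate 3. *Eif2b5*, the catalytic subunit, was at 101, 109.6 and 83 CPM in wild type and 90.1, 95 and 86.9 CPM in *Ythdf2*-/- and *Eif2b1*, the regulatory alpha subunit, at 48.3, 51.2 and 39.8 CPM in wild type and 48.9, 46.1 and 40.6 CPM in *Ythdf2*-/-. The first again had wild-type replicates 1 and 2 on top and replicate 3 at the bottom, whereas the second overlapped throughout.

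Of the 4 kinases of eIF2 alpha, 3 had a positive and 1 a negative log2 fold change, none past the test. Their summed level was 173, 184 and 176 CPM in wild type and 186, 193 and 204 CPM in *Ythdf2*-/- (log2 ratio 0.13), and of the 13 class sums this was the only one whose genotypes did not overlap. Without wild-type replicate 3 the log2 ratio was 0.12, and 7 more of the 13 sums did not overlap, all lower in *Ythdf2*-/-: those of the eIF2 subunits, eIF2B, eIF3, the eIF4A helicases, the eIF4E proteins, eIF1 with eIF1A, and eIF5A. Among all single genes, 5.24% were higher and 4.92% lower without overlap with all libraries, and 18.9% and 20% without that replicate. The sums all shift with the same library left out, so they are not separate observations. *Eif2ak1*, the heme-regulated kinase, was at 53.6, 64 and 59.3 CPM in wild type and 64.6, 67.8 and 67 CPM in *Ythdf2*-/-, all 3 *Ythdf2*-/- libraries being above all 3 wild-type ones. Its log2 fold change was 0.17 (SE 0.12, unadjusted p 0.196), so the difference was not past the test. *Eif2ak3* encodes the kinase of the endoplasmic reticulum stress response and was at 51.6, 51.2 and 46.5 CPM in wild type and 50.3, 58.6 and 56.4 CPM in *Ythdf2*-/-, with a log2 fold change of 0.15 (SE 0.12). *Eif2ak4*, which senses uncharged tRNA, was highest in wild-type replicate 3, at 31.5, 29.1 and 40.3 CPM in wild type and 31.6, 27.8 and 32.3 CPM in *Ythdf2*-/-, and its log2 fold change of -0.14 became 0.01 without that library. For *Eif2ak2*, the kinase activated by double-stranded RNA, the log2 fold change was 0.26 (SE 0.17), or 0.15 without wild-type replicate 3, but 2041 bases of its exons are shared with *Gm6548*, annotated on the same strand, and 173 with *Gm26637* on the opposite strand, so its count is uncertain.

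Both initiator tRNA factors that work beside eIF2 overlapped between genotypes. *Eif2a*, a factor for unusual start sites and not the alpha subunit of eIF2, was at 94.2, 91.3 and 95 CPM in wild type and 116, 125 and 94.1 CPM in *Ythdf2*-/-, with a log2 fold change of 0.26 (SE 0.14) and an unadjusted p of 0.116. *Ythdf2*-/- replicates 1 and 2 lay above the wild-type libraries and replicate 3 within them. *Eif2d*, which can deliver tRNA without GTP, was at 35.6, 37.3 and 37.7 CPM in wild type and 37.8, 43.5 and 32.9 CPM in *Ythdf2*-/-, with a log2 fold change of 0.05 (SE 0.15).

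eIF3 is the largest of the factors, and the mRNAs of its subunits stood at similar levels. Per kilobase of transcript (RPKM, mean of 6 libraries), the 12 subunits with reads ran from 81.3 for *Eif3b* to 168 for *Eif3h*, a 2.07-fold range with a coefficient of variation of 24.2%, and this coefficient lay between 23.1% and 30.4% in every single library. By comparison the 5 eIF2B subunits ran from 7.74 RPKM for *Eif2b3* to 36.9 for *Eif2b5*, with a coefficient of variation of 45.6%, and the 3 eIF4G scaffolds from 42.2 for *Eif4g3* to 223 for *Eif4g2*. These are descriptions over genes, with no test.

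Of the 12 eIF3 subunits, 10 had a negative log2 fold change and 2 a positive one, from -0.23 (*Eif3b*) to 0.17 (*Eif3f*), and 9 were smaller than their standard error. Without wild-type replicate 3, 11 were negative and 1 was positive, from -0.37 (*Eif3b*) to 0.20 (*Eif3f*). With all libraries 0 subunits were lower (4.92% of all genes) or higher (5.24%) without overlap, and without that replicate 6 were lower (20%), which were *Eif3b*, *Eif3d*, *Eif3e*, *Eif3g*, *Eif3i* and *Eif3m*, and 0 were higher (18.9%). *Eif3a*, the scaffold subunit on which the complex is built, was at 496, 469.6 and 511 CPM in wild type and 470.2, 393 and 528 CPM in *Ythdf2*-/-, with a log2 fold change of -0.09 (SE 0.16) and a 95% interval of -0.48 to 0.31. *Eif3c*, a further core subunit, varied little, at 358, 360.0 and 358 CPM in wild type and 345, 345 and 358 CPM in *Ythdf2*-/-, with a log2 fold change of -0.04 (SE 0.12) and an interval of -0.33 to 0.25. Its wild-type SD was 1.12 CPM and its *Ythdf2*-/- SD 7.65 CPM. *Eif3e* was at 281, 263 and 207 CPM in wild type and 227, 233 and 215 CPM in *Ythdf2*-/-, with a log2 fold change of -0.16 (SE 0.15) and -0.27 without wild-type replicate 3. *Eif3h* was at 224, 204 and 194 CPM in wild type and 209, 218 and 189 CPM in *Ythdf2*-/-, with a log2 fold change of -0.02 (SE 0.13). Without wild-type replicate 3, 5 subunits (*Eif3b*, *Eif3d*, *Eif3e*, *Eif3g* and *Eif3i*) were among the 12 members lower at an unadjusted p under 0.05 (8.58% of all genes in that fit).

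The j subunit could not be measured from these counts. Mouse has *Eif3j1* on chromosome 2 at 122028580 to 122053632, in 8 exon blocks, and *Eif3j2*, a single-exon copy on chromosome 18, and both rows held 0 reads in all 6 libraries, which allows up to 3 reads per library by counting error alone. Their RefSeq coding sequences are 99.2% identical and share a run of 784 bases, so reads within that run cannot be told apart. Over all exons, of 2413 and 2419 bases, the longest shared run is 1107 bases. How the counting treated reads that fit more than 1 place is not given in the sources used here. The deposited expected counts, which rest on far fewer reads, gave the pair 18, 5 and 32 in wild type and 16, 16 and 26 in *Ythdf2*-/-. The groups overlapped, and the split between the copies varied from library to library.

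The eIF4A helicases all had negative values, none past edgeR's test. *Eif4a1*, which unwinds the leader as part of the cap complex, lies on chromosome 11 at 69666936 to 69672423 on the minus strand and had the highest level per length of all members. It was at 1312, 1226 and 682 CPM in wild type and 873, 838 and 883 CPM in *Ythdf2*-/-, with a log2 fold change of -0.31 (SE 0.27) over all libraries and -0.55 without wild-type replicate 3. Wild-type replicates 1 and 2 were far above the *Ythdf2*-/- libraries, whose mean was 865 ± 23.3 CPM (SD, n = 3), and wild-type replicate 3 was below them all. Its close relative *Eif4a2* was at 326, 333 and 446 CPM in wild type and 326, 283 and 289.7 CPM in *Ythdf2*-/-, with a log2 fold change of -0.30 (SE 0.17), or -0.14 without that replicate, and here wild-type replicate 3 was the highest library. Exons of *Eif4a2* share 160 bases with *Rfc4* on the opposite strand. *Eif4a3*, the helicase of the exon junction complex and no part of the cap complex, was at 146, 154 and 99.8 CPM in wild type and 147, 117 and 127 CPM in *Ythdf2*-/-, with a log2 fold change of -0.04 (SE 0.20), or -0.21 without wild-type replicate 3.

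The ratio of *Eif4a1* to *Eif4a2* per length was 4.995, 4.57 and 1.90 in wild type and 3.32, 3.67 and 3.78 in *Ythdf2*-/-. In every *Ythdf2*-/- library it lay between wild-type replicates 2 and 3, so the groups overlapped. The ratio of *Eif4g1* to *Eif4g3* had the same order, at 3.24, 2.87 and 1.77 in wild type and 2.45, 2.48 and 2.45 in *Ythdf2*-/-. So did that of *Eif1* to *Eif1b*, at 4.36, 4.21 and 2.73 and at 3.48, 3.64 and 3.801. With lengths of all annotated exons the ratio of *Eif4g1* to *Eif4g3* was 1.74 times as high in each library, which leaves the order of the libraries as it is. The longest run of bases that the coding sequences of *Eif4a1* and *Eif4a2* share is 20, and that of *Eif4g1* and *Eif4g3* is 19, so the rows can be told apart by most reads.

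**Figure D4:**
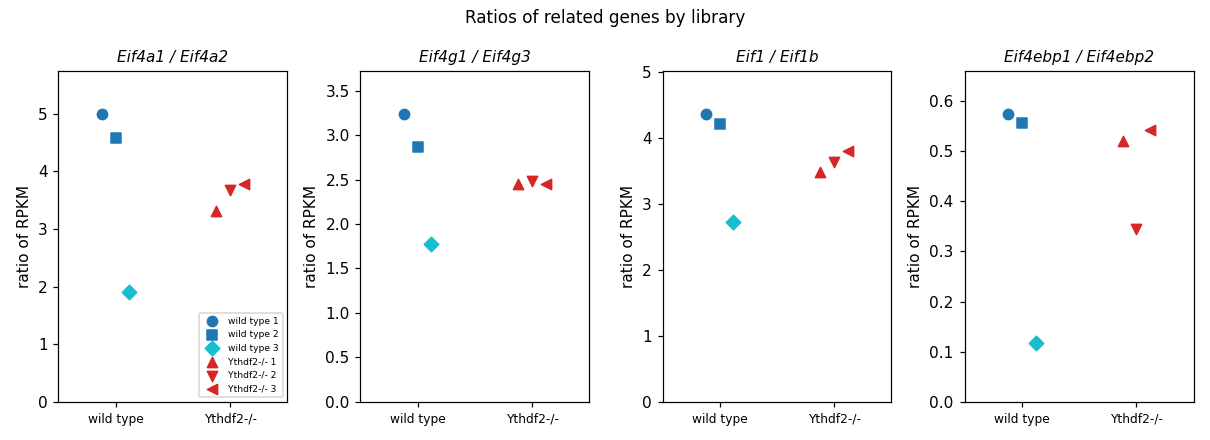
Ratio of the length-scaled levels (RPKM) of 4 gene pairs in each library (y axes, from 0), with wild type on the left and *Ythdf2*-/- on the right of each panel. For *Eif4a1* over *Eif4a2*, *Eif4g1* over *Eif4g3* and *Eif1* over *Eif1b* the *Ythdf2*-/- libraries lie between wild-type replicates 1 and 2 above and wild-type replicate 3 below, and for *Eif4ebp1* over *Eif4ebp2* wild-type replicate 3 is lowest at 0.118.

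Among the cap-binding proteins, *Eif4e*, the factor that binds the cap in general initiation, was at 289, 260.4 and 128 CPM in wild type and 224, 171 and 243 CPM in *Ythdf2*-/-, with a log2 fold change of -0.09 (SE 0.32), or -0.37 without wild-type replicate 3. Its 95% interval was -0.87 to 0.69, and wild-type replicate 3 was at 46.8% of the mean of the other wild-type libraries. *Eif4e2*, a cap-binding protein known for repression, was at 89.4, 92.3 and 76.9 CPM in wild type and 76.7, 77.9 and 83.4 CPM in *Ythdf2*-/-, with a log2 fold change of -0.12 (SE 0.12). *Eif4e3* had the largest log2 fold change of any member, -0.90 (SE 0.43, unadjusted p 0.0756), at 1.37, 0.992 and 2.29 CPM in wild type and 0.767, 0.963 and 0.724 CPM in *Ythdf2*-/-. It was the least abundant member that passed the filter, its *Ythdf2*-/- libraries were all below the wild-type ones, and without wild-type replicate 3, the highest, the value was -0.51. Its exons share 507 bases with *Gpr27* on the opposite strand.

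None of the scaffolds passed the test. *Eif4g1*, the main link between cap complex and ribosome, was at 678, 630.5 and 457 CPM in wild type and 569.6, 455 and 654 CPM in *Ythdf2*-/-, with a log2 fold change of -0.07 (SE 0.22), or -0.23 without wild-type replicate 3. *Eif4g3*, its relative, was at 236, 247 and 289.9 CPM in wild type and 261, 206 and 299.9 CPM in *Ythdf2*-/-, with a log2 fold change of -0.01 (SE 0.18), or 0.08 without wild-type replicate 3. *Eif4g2*, which works in initiation without eIF4E, had the most reads of all members, at 1780.3, 1753 and 1816 CPM in wild type and 1602, 1596 and 1717 CPM in *Ythdf2*-/-. Its 3 *Ythdf2*-/- libraries were all below the 3 wild-type ones, by a log2 fold change of -0.12 (SE 0.16, unadjusted p 0.480), and the value without wild-type replicate 3 was -0.11. The helpers of the helicase, *Eif4b* and *Eif4h*, were at 492, 502 and 634 CPM in wild type and 523, 633 and 414 CPM in *Ythdf2*-/- and at 433, 421 and 337 CPM in wild type and 372, 390.4 and 366 CPM in *Ythdf2*-/-, with log2 fold changes of -0.05 (SE 0.21) and -0.08 (SE 0.15). These were 0.08 and -0.18 without wild-type replicate 3.

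The inhibitors of eIF4E had values on both sides of 0, none past the test. *Eif4ebp1* was at 22.2, 19.8 and 4.85 CPM in wild type and 21, 15.2 and 24.9 CPM in *Ythdf2*-/-, with a log2 fold change of 0.38 (SE 0.54) and a 95% interval of -0.93 to 1.69. Wild-type replicate 3 was at 23.1% of the mean of the other wild-type libraries, and without it the value was -0.04. *Eif4ebp2*, known as the main binding protein of the brain, was at 70.3, 64.7 and 75.1 CPM in wild type and 73.4, 80 and 83.4 CPM in *Ythdf2*-/-, with a log2 fold change of 0.17 (SE 0.12), or 0.23 without that replicate. Per length, the ratio of *Eif4ebp1* to *Eif4ebp2* was 0.574, 0.556 and 0.118 in wild type and 0.520, 0.346 and 0.543 in *Ythdf2*-/-, with overlap. This level rests on the length taken for *Eif4ebp2*: with lengths of all annotated exons the ratio was 1.87, 1.81 and 0.383 in wild type and 1.696, 1.13 and 1.77 in *Ythdf2*-/-. The ratio of *Eif4ebp1* to its target *Eif4e* did not overlap, at 0.389, 0.385 and 0.192 in wild type and 0.474, 0.451 and 0.520 in *Ythdf2*-/-. With lengths of all annotated exons it was 2.04 times as high in each library. It was 1 of 9 ratios computed, with no test. The ratio of *Eif4ebp2* to *Eif4e* overlapped, at 0.678, 0.693 and 1.63 in wild type and 0.912, 1.30 and 0.958 in *Ythdf2*-/-. *Eif4ebp3* was low, from 8.61 to 12.9 CPM in the 6 libraries.

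*Eif4enif1*, which carries eIF4E into the nucleus and to sites of mRNA storage and decay, was at 85.9, 78.3 and 73.8 CPM in wild type and 66.9, 67.8 and 66.5 CPM in *Ythdf2*-/-. The *Ythdf2*-/- libraries, with an SD of 0.657 CPM, lay close together and below every wild-type library, with a log2 fold change of -0.24 (SE 0.11, unadjusted p 0.0773, edgeR adjusted p 0.999) and -0.29 without wild-type replicate 3. The 841 bases that its exons share with genes on the opposite strand, 800 with *Gm51877* and 41 with *Sfi1*, leave its count uncertain, since the strand setting of the counting is not given in the sources used here.

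Of the start codon selection factors, *Eif1a* was the only member past an unadjusted p of 0.05. It was at 58.2, 58.5 and 47.8 CPM in wild type and 46.2, 31.4 and 41.5 CPM in *Ythdf2*-/-, with means ± SD of 54.8 ± 6.12 CPM for wild type and 39.7 ± 7.57 CPM for *Ythdf2*-/- (n = 3 each). The log2 fold change was -0.47 (SE 0.19), with an unadjusted p of 0.0440 and an adjusted p of 0.999 in edgeR, and the highest *Ythdf2*-/- library, at 46.2 CPM, lay just under the lowest wild-type one, at 47.8 CPM. Its X-linked relative *Eif1ax*, which encodes a related form of the same scanning factor, was at 105, 88.8 and 55.8 CPM in wild type and 79.6, 76.9 and 77.5 CPM in *Ythdf2*-/-, with a log2 fold change of -0.09 (SE 0.23), or -0.31 without wild-type replicate 3. The longest shared run of their coding sequences is 28 bases. *Eif1*, the factor that keeps the ribosome scanning until it meets the start codon, was at 428, 422 and 311 CPM in wild type and 357, 410.5 and 342 CPM in *Ythdf2*-/-, with a log2 fold change of -0.07 (SE 0.18), or -0.20 without wild-type replicate 3.

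Of the factors that act once the start codon is found, *Eif5*, the GTPase activator of eIF2, was at 496, 472 and 424 CPM in wild type and 508, 501 and 498 CPM in *Ythdf2*-/-, with every *Ythdf2*-/- library above every wild-type one. The log2 fold change was 0.12 (SE 0.14, unadjusted p 0.433), and 0.05 without wild-type replicate 3. *Eif5b*, the GTPase for subunit joining, was at 127, 108 and 168 CPM in wild type and 126, 99.2 and 133 CPM in *Ythdf2*-/-, with a log2 fold change of -0.17 (SE 0.21) and 0.02 without that library, and 1241 bases of its exons overlap genes on the opposite strand, 1240 of them *Rev1*. Outside that group, *Eif6*, which holds the large subunit apart, was at 54.5, 50.8 and 40.5 CPM in wild type and 42.1, 49.2 and 40.3 CPM in *Ythdf2*-/-, with a log2 fold change of -0.15 (SE 0.16), or -0.26 without wild-type replicate 3.

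*Eif5a*, whose product carries the hypusine residue and also acts in elongation, was at 683, 624 and 285 CPM in wild type and 446, 444 and 475 CPM in *Ythdf2*-/-. The 3 *Ythdf2*-/- libraries lay close together, below wild-type replicates 1 and 2 and above wild-type replicate 3. The log2 fold change was -0.22 (SE 0.33) over all libraries, with a 95% interval of -1.02 to 0.57, and -0.52 without that replicate. Of the 2065 exon bases of *Eif5a*, 345 overlap *Gps2* on the opposite strand, so its count is uncertain. *Eif5a2* was far lower, at 39.5, 39.9 and 33.3 CPM in wild type and 32.4, 28.4 and 35.8 CPM in *Ythdf2*-/-, with a log2 fold change of -0.22 (SE 0.15), and 625 of its 5850 exon bases overlap genes on the opposite strand.

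How far wild-type replicate 3 departed from its own group is a measurement of the members as well. Its level relative to the mean of wild-type replicates 1 and 2 had a median log2 difference of -0.27 over the 50 members, 34 being below, and of 0.01 over 13065 genes with reads in every library, 49.3% being below. It was the lowest library for 23 members (46%, against 34.4% of all genes) and the highest for 8 (16%, against 33.8%). The members furthest below were *Eif4ebp1* at 23.1% of the other wild-type mean, *Eif5a* at 43.6%, *Eif2s1* at 44.9%, *Eif4e* at 46.8% and *Eif4a1* at 53.7%. Those furthest above were *Eif4e3* at 194%, *Eif5b* at 143%, *Eif4a2* at 135%, *Eif2ak4* at 133% and *Eif4b* at 128%. The order of wild-type replicates 1 and 2 above every *Ythdf2*-/- library above wild-type replicate 3 held for 15 members (11.4% of all genes) and the opposite order for 0 (9.74%). The 15 were *Eif1*, *Eif1ad*, *Eif1ax*, *Eif2b5*, *Eif2s1*, *Eif2s2*, *Eif3d*, *Eif3e*, *Eif3g*, *Eif3i*, *Eif3m*, *Eif4a1*, *Eif4e*, *Eif4h* and *Eif5a*. This order was looked for after the values had been seen and is given without a test. The lower progenitor marker sum and higher glial and neuronal marker sums in wild-type replicate 3, given above, moved with it, and their part in the result was not tested. Wild-type replicate 3 and *Ythdf2*-/- replicates 1 and 2 each had at most 1 Y-linked read, against 1111 to 2147 in the other libraries. With a term for Y-linked reads the median log2 fold change of members was -0.02, against -0.07 without it.

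Per length, the tested members spanned a 1099-fold range with the lengths in the deposited gene tables and a 2974-fold range with lengths of all annotated exons. The mean RPKM of the 6 libraries was highest for *Eif4a1* (518), *Eif5a* (387), *Eif1* (300.1), *Eif4g2* (223) and *Eif3h* (168) and lowest for *Eif4e3* (0.471). *Eif4a1* had means ± SD of 574 ± 183 RPKM for wild type and 462 ± 12.5 RPKM for *Ythdf2*-/- (n = 3 each), and *Eif5a* of 417 ± 169 and 357 ± 13.8 RPKM. The wild-type spread rests on wild-type replicate 3, at 365 and 224 RPKM for these genes. Wild-type replicates 1 and 2, at 701 and 656 RPKM for *Eif4a1* and 536 and 490.1 RPKM for *Eif5a*, were above every *Ythdf2*-/- library, which reached 472 and 373 RPKM. Their edgeR adjusted p without replicate 3 was 0.174 and 0.171, and the quality-weighted fit called both lower, as given above. Between the eIF2 subunits, *Eif2s2* was at 81.1 RPKM and *Eif2s1* at 40.3 RPKM, while the kinases ran from 6.44 for *Eif2ak4* to 24.4 for *Eif2ak1*. The helpers *Eif4b* and *Eif4h*, at 138 and 158 RPKM, stood in the range of the eIF3 subunits. The lengths are those in the deposited gene tables, and with lengths of all annotated exons *Eif5a* fell from 387 to 239 RPKM, below *Eif1*, *Eif1ax* moved from rank 21 to 38 of 50, *Eif4ebp2* from 29 to 42 and *Eif2d* from 40 to 48, so an order of genes with several transcript forms is uncertain.

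**Figure D5:**
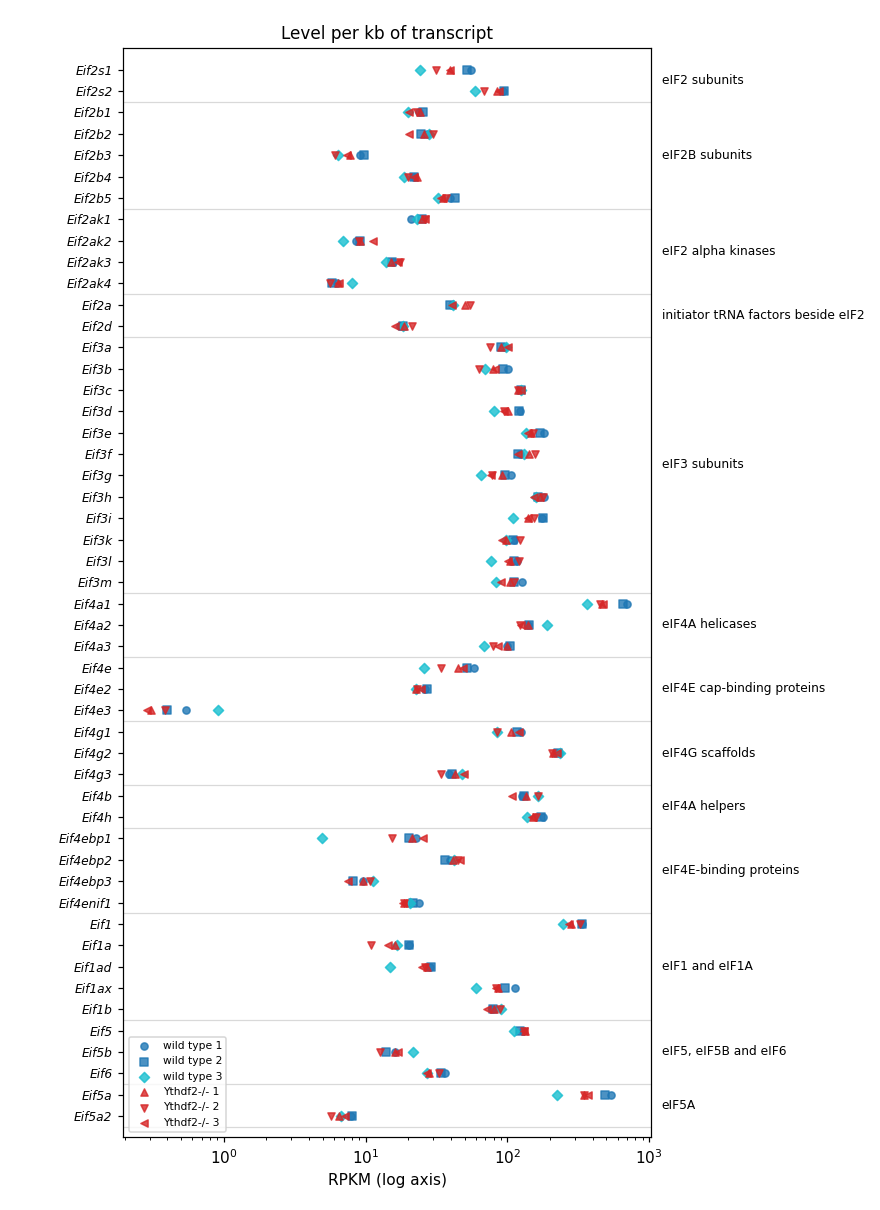
Length-scaled level (RPKM, log axis) of each tested initiation factor gene in each library, grouped by factor. The eIF3 subunits fall in a narrow band, with 6-library means of 81.3 to 168 RPKM, whereas the eIF4 genes run from 0.471 RPKM for *Eif4e3* to 518 RPKM for *Eif4a1*.

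The other genes of the pathway were 47 in 7 lists. Of 46 that passed the filter (*Eef1a2* did not), 23 had a positive and 23 a negative log2 fold change, with a median of 0.01, 0 passed the adjusted threshold, and at an unadjusted p under 0.05 in edgeR 1 was higher (1.81% of all genes) and 1 was lower (1.82%). The higher one was *Ddit4*, an inhibitor of mTORC1, the kinase complex that phosphorylates the eIF4E-binding proteins, with a log2 fold change of 0.85 (SE 0.31) and means ± SD of 55.3 ± 4.85 CPM for wild type and 99.7 ± 45.1 CPM for *Ythdf2*-/- (n = 3 each, the order kept for the pairs of means that follow). Its *Ythdf2*-/- libraries were at 76.7, 151.7 and 70.8 CPM, and without replicate 2 the value was 0.43. The lower one was *Ddx3x*, a helicase that helps long leaders through scanning, with -0.38 (SE 0.16) and means of 684 ± 32.2 and 527 ± 59.0 CPM. Neither passed correction, and the unadjusted p was over 0.05 without wild-type replicate 1 or 2 for both genes and without *Ythdf2*-/- replicate 1 or 3 for *Ddx3x*. Libraries did not overlap for 5 of the 46 that were higher in *Ythdf2*-/- (5.24% of all genes), which were *Ddit4*, *Mknk2*, *Pabpc1*, *Eef2* and *Mtif3*, and for 2 that were lower (4.92%), *Mlst8* and *Ddx3x*. Without wild-type replicate 3, 4 were higher at an unadjusted p under 0.05 (8.03%), which were *Mtor*, *Tsc1*, *Ddit4* and *Pdcd4* of the mTORC1 list, and 5 were lower (8.58%), which were *Ddx3x*, *Denr*, *Abce1*, *Eef1e1* and *Etf1*, with 0 past the adjusted threshold in edgeR. In the mTORC1 list, *Mtor* was at 127 ± 12.6 and 154 ± 20.2 CPM, with 0.27 (SE 0.15), and *Larp1*, which binds the leaders of ribosomal protein mRNAs, at 187 ± 20.3 and 180 ± 35.5 CPM. Of the eIF4E kinases, *Mknk2* was at 72.6 ± 1.38 and 87.1 ± 9.08 CPM, with 0.26 (SE 0.12), and *Mknk1* at 30.7 ± 3.02 and 33.5 ± 2.64 CPM.

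Downstream of eIF2 phosphorylation, *Atf4*, the transcription factor whose translation rises when eIF2 is blocked, had means ± SD of 173 ± 20.04 CPM for wild type and 185 ± 15.8 CPM for *Ythdf2*-/- (n = 3 each), with a log2 fold change of 0.10 (SE 0.14), and *Ppp1r15b*, a subunit of the phosphatase that reverses the mark, was at 135 ± 13 and 148 ± 18.9 CPM. The poly(A)-binding protein *Pabpc1* was at 745 ± 41.7 and 808 ± 36.6 CPM and its partner *Paip1* at 143 ± 3.19 and 135 ± 6.17 CPM. *Abce1*, which splits ribosomes for a new round, was at 270.0 ± 73.2 and 225 ± 34.1 CPM, with a log2 fold change of -0.26 (SE 0.25), or -0.47 without wild-type replicate 3. The elongation factors *Eef1a1* and *Eef2* were at 6295 ± 849 and 6574 ± 1029 CPM and at 2444 ± 25.6 and 2860 ± 273 CPM. The mitochondrial initiation factors *Mtif2* and *Mtif3* were at 45.04 ± 5 and 50.4 ± 3.07 CPM and at 13.7 ± 1.605 and 16.3 ± 0.576 CPM, with log2 fold changes of 0.16 (SE 0.14) and 0.25 (SE 0.17).

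Many mRNAs of the translation machinery are known to begin with a C and a run of pyrimidines, through which mTORC1 controls them. At the annotated RefSeq start sites, read on the sense strand only, a C followed by 4 bases that are each C or T was found at 1 of the 41 members with a start window (2.44%) and at 493 of the 17583 genes of the count table with one (2.8%). The member was *Eif3f*, shown here as the 25 bases around its start with the motif in capitals, at chr7:108934405-108934429 on the plus strand.
Eif3f: tctaggctctCTCTCtttctcggca
*Eif3f* was at 187, 179 and 196 CPM in wild type and 215, 236 and 179 CPM in *Ythdf2*-/-, with a log2 fold change of 0.17 (SE 0.14), and its libraries overlapped between genotypes. An annotated start can differ from the start used in these cells by several bases, so a missing match says only that these letters do not stand at the annotated base.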

How the data were processed

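Gene-level RNA-seq tables of 3 wild-type and 3 *Ythdf2*-/- input libraries were used. The authors fragmented purified mRNA by sonication, prepared libraries with a stranded TruSeq kit and aligned reads to mm10 with TopHat, and the submitters' processing notes name Bowtie2 2.2.9, RSEM 1.2.15 and featureCounts. The deposited raw counts are whole reads per gene, without normalization. Separate deposited gene tables hold expected counts, estimated per gene and not whole, transcript lengths, the authors' TPM, which were not used, and their FPKM, scaled for transcript length and depth. Those expected counts sum to 1.97% to 2.40% of the counted reads per library and, for the members, to 0.441% of them, so the FPKM values were used only as an alternative and the lengths for levels per kilobase. The counter's version, strand setting and rule for reads with several matches are not given in the sources used here.

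Counts of 24525 genes were filtered with filterByExpr and tested in edgeR 4.0.16 (R 4.3.3, TMM, glmQLFit with the robust option, glmQLFTest) with a single term for genotype, and p-values were adjusted by Benjamini-Hochberg over 13112 genes. CPM and RPKM use TMM-scaled library sizes. DESeq2 1.42.0, limma-voom with and without sample quality weights (limma 3.58.1), limma on log2(FPKM + 1) and log2(FPKM + 0.1), other filters, RLE size factors, a replicate block, a term for Y-linked reads and leaving out each library were alternatives. A pseudocount shrinks the fold changes of low genes, but the few reads behind the FPKM values also make them unsteady. For *Eif2ak1*, with 10 expected counts over 6 libraries, they were 1.43 and 2.66, against 0.17 from counts in edgeR. The steps were tested on simulated data. Sequences and positions are from RefSeq for GRCm38.p6 (Biopython 1.88, pysam 0.24.0). Each position is 1-based.

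The members and lists were chosen with earlier results of these data known. Genes named with full values are those with the 2 highest mean CPM in each class, a set chosen for their roles, the 5 with the smallest unadjusted p, and those below the filter. Of each pathway list the 2 highest and any with an unadjusted p under 0.05 are named. Others are named where a count or an extreme called for it, after their values were seen. The order of libraries shared by 15 members and the expected counts beside the raw counts were examined as alternatives chosen after seeing the data.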

Additional observations from a re-analysis of the deposited data

Results flagged for a closer look

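Both copies of the eIF3 j subunit gene, and *Eif4e1b*, had expected counts in the deposited gene tables, a column that the comparisons do not use, although their rows in the count tables held 0 reads in all 6 libraries, or, for *Eif4e1b*, 1 read. *Eif3j1* had up to 32 expected counts, in wild-type replicate 3, and *Eif3j2* up to 17.98, in wild-type replicate 1. *Eif3j1* was at 0.02, 5 and 32 in wild type and at 16, 0.01 and 26 in *Ythdf2*-/-, and *Eif3j2* was above 0 only in wild-type replicate 1 and *Ythdf2*-/- replicate 2. *Eif4e1b* was at 14, 16 and 8.78 in wild type and at 21, 14 and 21.01 in *Ythdf2*-/-, its highest value being in *Ythdf2*-/- replicate 3.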

How the results depend on the processing

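Across the settings tried, 0 members were called higher at an adjusted p under 0.05, and members were called lower only with sample quality weights (2, *Eif4a1* and *Eif5a*). At an unadjusted p, members higher numbered 0 with all libraries (1.81% of all genes), 2 with sample quality weights (15.5%), 1 with the term for Y-linked reads (5.23%), 2 on log2(FPKM + 1) (2.91%), 3 on log2(FPKM + 0.1) (2.71%) and 0 to 1 on leaving out each library (0.905% to 8.03%). Members lower numbered 1 with all libraries (1.82%), 0 with no filter (1.85%), 17 with sample quality weights (14.4%), 2 with the Y-linked term (5.72%), 0 on either FPKM scale (1.47% and 1.38%) and 0 to 12 on leaving out each library (0.897% to 8.58%). Members higher without overlap numbered 2, but 1 with RLE size factors (4.995% of all genes), 6 on deposited FPKM (3.86%) and 2 to 5 on leaving out each library (7.25% to 18.9%), and members lower without overlap numbered 4, but 5 with RLE size factors (5.28%), 0 on deposited FPKM (1.97%) and 4 to 24 on leaving out each library (7.12% to 20.04%). The cause was not tested, apart from the lone libraries named in the text.

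The median log2 fold change of members ran from -0.14 to -0.0100 on leaving out each library. It was 0.15 on log2(FPKM + 1), where the median of all genes was 0.11, and 0.19 on log2(FPKM + 0.1), where it was 0.15, with 44 members tested. The log2 ratio of summed eIF4 levels was -0.029 on deposited FPKM, and that of eIF2 was 0.098, against -0.0081 from counts. On leaving out each library the summed ratios ran from -0.12 to 0.057 for eIF2, -0.14 to -0.0055 for eIF3 and -0.20 to -0.095 for eIF4.

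Same-numbered libraries did not deviate together (correlations of -0.248, -0.244 and -0.394), so the numbers were not taken as pairs. With the replicate number as a block, 0 members were lower at an unadjusted p (0.717% of all genes) and 0 were higher (0.679%), *Eif1a* having an edgeR p of 0.0832.

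The sign of small values was often unsettled. With the Y-linked term it turned to 0.13 for *Eif2s2*, 0.048 for *Eif2s1*, -0.020 for *Eif2d*, 0.22 for *Eif4e*, 0.081 for *Eif4g1*, 0.081 for *Eif1ax*, 0.092 for *Eif5a*, 0.00095 for *Eif4g3* and 0.077 for *Eif4a3*. With quality weights it turned to 0.029 for *Eif4b*, 0.092 for *Eif5b*, 0.054 for *Eif2ak4* and 0.11 for *Eif4g3*, and with no filter to 0.0067 for *Eif4g3*. On log2(FPKM + 1) and log2(FPKM + 0.1) it turned to 0.43 and 0.49 for *Eif2s1*, 0.093 and 0.097 for *Eif3a*, 0.13 and 0.19 for *Eif3c*, 0.19 and 0.20 for *Eif4a2*, 0.38 and 0.57 for *Eif4e*, 0.0026 and 0.0054 for *Eif4e2*, 0.77 and 0.96 for *Eif4g1*, 0.030 and 0.031 for *Eif4b*, 0.23 and 0.27 for *Eif4h*, -0.24 and -0.32 for *Eif4ebp2*, 1.17 and 1.32 for *Eif1ax*, 0.11 and 0.11 for *Eif5b*, 0.73 and 0.79 for *Eif5a*, 0.055 and 0.058 for *Eif5a2*, and 1.04 and 1.45 for *Eif4g3*. On leaving out each library, values on both sides of 0 were found for *Eif2s2* (-0.23 to 0.070), *Eif2b1* (-0.14 to 0.038), *Eif2d* (-0.050 to 0.14), *Eif3a* (-0.19 to 0.032), *Eif4e* (-0.37 to 0.13), *Eif4g1* (-0.23 to 0.064), *Eif4b* (-0.20 to 0.092), *Eif1* (-0.20 to 0.013), *Eif1ax* (-0.31 to 0.11), *Eif5b* (-0.30 to 0.022), *Eif5a* (-0.52 to 0.0017), *Eif2ak4* (-0.23 to 0.013), *Eif3h* (-0.060 to 0.046), *Eif4g3* (-0.14 to 0.14), *Eif4a3* (-0.21 to 0.081) and *Eif4ebp1* (-0.044 to 0.72). None of these values passed an adjusted threshold. The FPKM values rest on few reads, the expected counts of a member over 6 libraries having a median of 19.89, though *Eif5b* had 1144. *Eif1ax*, *Eif4g1* and *Eif4g3* had 11, 36 and 36, against 5936, 42136 and 18729 counted reads. For such genes a turn of sign on FPKM says little about the sign from counts. Counts and intervals cover the spread of 3 libraries a genotype, and *Eif4e3*, at 0.724 to 2.29 CPM, is limited by its few reads.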
